A study of Mus musculus with 21 samples.

Results

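Chromatin accessibility was followed at 40 genes of the Wnt pathway in mouse medulloblastoma, a tumor of the cerebellum. The genes were 11 ligands, 10 receptors and co-receptors, 4 genes of β-catenin and its destruction complex, 4 TCF/LEF factors, 7 secreted antagonists, and 3 R-spondins with their receptor Lgr5, out of 21887 protein-coding genes on the mouse assembly mm10. The measure was the number of peak summits, the points of highest signal of ATAC-seq peaks, that lay in a gene body or within 20 kb of it. Only the 100000 highest-scoring summits of each library were kept, so that libraries were compared at equal list length. The 40 windows together covered 3.74 Mb, no pair of them overlapped, and they held 287 to 432 kept summits in each of the 21 libraries.

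Wnt ligands bind Frizzled receptors together with the co-receptors Lrp5 and Lrp6, which stops a complex of Apc and Axin from marking β-catenin (Ctnnb1) for degradation. Stabilised β-catenin then joins TCF/LEF factors on DNA and switches on targets such as Axin2 and Lef1. R-spondins acting through Lgr receptors strengthen the signal, while Dkk, Sfrp, Frzb and Wif1 proteins weaken it outside the cell. In the cerebellum Wnt signals pattern the midbrain-hindbrain boundary early in development, and mutation of CTNNB1 defines a human medulloblastoma subgroup that is separate from the Sonic hedgehog subgroup arising from granule neuron progenitors.

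The study compared 7 groups of 3 libraries each, made with Omni-ATAC, a low-background form of ATAC-seq in which a transposase cuts open chromatin. The sorted cells were granule neuron progenitors (GNP) of postnatal day 7, hyperplasia cells of postnatal day 28, and tumor cells whose age is not given. All came from cerebella of mice carrying Atoh1-EGFP, a reporter of granule progenitors, and the tumor cells were sorted for EGFP. GNP titles carry the word Ptch1, the Hedgehog receptor whose loss drives this tumor type, and hyperplasia titles carry the letters PNC. No genotype is spelled out for any stage. The mouse medulloblastoma line VDR was profiled after siRNA against Nfia or Nfib (siNfia, siNfib), which encode NFI transcription factors, after the control siRNA (siNC), and untreated. The labels name siRNA, while the names of these lists begin with sh, so which kind of knockdown was used is not settled here. Either kind acts on RNA, so the summit lists cannot show whether Nfia or Nfib was reduced. No source says whether replicates were separate animals or cultures, so the p-values below measure the spread between libraries, which may be technical. In bulk libraries such as these, fewer cells with an open site and less accessibility per cell cannot be told apart.

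The lists held 159720 to 279584 summits per library and give no read depth. The score at rank 100000, taken here as a guide to signal strength, was 5.03 to 7.23 with siNfia, 8.25 to 17.4 with siNfib, 4.95 to 9.61 with siNC and 3.76 to 3.97 in untreated VDR cells. It was 15.3 to 28.9 in GNP, 9.26 to 12.6 in hyperplasia and 10.02 to 21.3 in tumor. Weak lists therefore keep weaker peaks among their 100000, and untreated VDR libraries stood apart from the other groups in this respect. Summits of a peak that holds several have names ending in a letter. They made up 10.3% to 14.5% of kept summits in untreated VDR libraries and 61.5% to 77.3% in sorted cells. With siNC they were 41.8% to 73.3%, with siNfia 47.6% to 64.5% and with siNfib 67.6% to 81.7%. How far this moves summit counts was not tested. The 9 granule progenitor markers examined, among them Atoh1, Barhl1, Zic1 and Gli1, held 220 to 277 kept summits in every sorted library. Against GNP, 1 of the 9 was called lower in hyperplasia (Neurod1), where 2.33% of all genes were. In tumor 2 were called lower (Neurod1 and Pax6), where 3.55% of all genes were, and 0 were called higher in either stage. All 9 had summits in each group of sorted cells, and microglial, endothelial and meningeal marker lists summed to between 17 and 33 summits per sorted library. Lists of 6 genes each for other cells also varied between stages. Oligodendrocyte genes summed to 49 to 58 summits in GNP, 56 to 66 in hyperplasia and 64 to 66 in tumor, and astrocyte genes to 47 to 51, 51 to 63 and 55 to 63. Purkinje cell and interneuron genes summed to 36 to 41, 49 to 52 and 44 to 53. The 5 choroid plexus genes summed to 19 to 20, 19 to 21 and 22 to 36. Of the genes in all lists of other cells, Foxp2 was called higher and Spi1 and Kdr lower in hyperplasia than in GNP. In tumor Olig1, Foxp2 and Aqp1 were called higher and Kdr and Gad1 lower than in GNP. Of all genes, 2.18% were called higher in hyperplasia and 3.08% in tumor. The part of these lists in the stage results was not tested.

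Promoter sequences of 26 of the 40 genes were matched in RefSeq for this assembly, each running from 250 bases before the transcription start to 50 bases after it. Those of 4 genes are shown, 5′ to 3′ on the coding strand, with the bases within 5 bp of any kept summit in capitals. Frzb, a secreted Wnt antagonist, is shown because summits at its start came and went between groups (chr2:80447347-80447646, minus strand). Dkk2, another antagonist, had kept start summits in fewer libraries at later stages (chr3:132085042-132085341, plus strand). Axin2, a scaffold of the destruction complex and a standard Wnt target, kept summits at its start in all 21 libraries (chr11:108920099-108920398, plus strand). Fzd10, a Frizzled receptor, gained summits with siNfib (chr5:128600856-128601155, plus strand).
Frzb: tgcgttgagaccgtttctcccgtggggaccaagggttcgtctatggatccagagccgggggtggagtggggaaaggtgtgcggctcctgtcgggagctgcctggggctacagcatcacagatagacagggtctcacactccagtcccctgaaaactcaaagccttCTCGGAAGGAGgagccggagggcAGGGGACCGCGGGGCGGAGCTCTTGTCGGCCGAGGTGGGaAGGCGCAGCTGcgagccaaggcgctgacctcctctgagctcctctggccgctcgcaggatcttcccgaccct
Dkk2: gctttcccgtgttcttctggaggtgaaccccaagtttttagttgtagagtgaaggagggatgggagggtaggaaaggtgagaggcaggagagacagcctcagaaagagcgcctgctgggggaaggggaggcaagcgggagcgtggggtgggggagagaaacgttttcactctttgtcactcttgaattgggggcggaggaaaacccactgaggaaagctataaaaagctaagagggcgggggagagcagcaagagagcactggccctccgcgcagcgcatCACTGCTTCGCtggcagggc
Axin2: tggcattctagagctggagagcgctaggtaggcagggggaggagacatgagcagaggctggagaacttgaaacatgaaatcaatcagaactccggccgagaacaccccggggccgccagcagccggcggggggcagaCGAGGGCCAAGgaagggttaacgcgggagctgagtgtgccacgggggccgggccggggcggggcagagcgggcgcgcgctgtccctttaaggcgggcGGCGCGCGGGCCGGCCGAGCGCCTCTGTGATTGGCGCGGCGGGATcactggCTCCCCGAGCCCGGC
Fzd10: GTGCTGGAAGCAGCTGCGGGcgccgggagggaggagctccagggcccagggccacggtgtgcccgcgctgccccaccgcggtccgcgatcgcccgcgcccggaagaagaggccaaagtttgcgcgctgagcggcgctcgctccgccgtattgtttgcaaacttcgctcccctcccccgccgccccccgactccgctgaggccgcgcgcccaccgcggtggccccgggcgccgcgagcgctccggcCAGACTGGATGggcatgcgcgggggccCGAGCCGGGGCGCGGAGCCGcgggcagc

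The letters CAGCTG, an E-box of the kind bound by basic helix-loop-helix factors, occurred on either strand in the promoters of Frzb, Fzd10, Lef1 and Tcf7, which is 4 of 35 member promoters against 15.6% of all 21263 promoters of the same length. In the Frzb and Fzd10 promoters shown, these letters fall among the capitals. The full palindromic NFI site was in 0 of the 35 and in 0.0329% of all promoters, and its shorter form TTGGCA in the promoters of Tcf7l2 and Wnt5b, 2 of 35 against 13.1%. CTTTGAT, the core read by TCF/LEF factors, was found in the Wnt11 and Wnt5b promoters, 2 of 35 against 3.22%, and the GLI letters GACCACCCA in 0 of 35 against 0.179%. A match is a description of letters and not of binding.

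Within 500 bp of the start (of the most often occupied one, where RefSeq lists several), a kept summit was present in all 21 libraries at the receptors Fzd1, Fzd5 and Fzd7, at Axin2, at the TCF factors Tcf7l1 and Tcf7l2, and at the antagonists Sfrp2 and Wif1. Fzd4 and Fzd10 had one in 20 libraries and Ctnnb1 in 18. Among the ligands the start of Wnt5b was occupied in 15 libraries, and those of Wnt3a and Wnt8b, like that of Rspo1, in none. Few libraries had a start summit at Lef1 (5), Dkk2 (5), Dkk1 (2) and Tcf7 (1). Wnt7a had a start summit in 2 siNfia, 3 siNfib and 3 siNC libraries, in 0 untreated VDR libraries, and in 1, 0 and 0 libraries of GNP, hyperplasia and tumor. Wnt4, a ligand, had one in 1 VDR library, an untreated one, and in 3, 2 and 3 libraries of GNP, hyperplasia and tumor. Lef1 had one in 0 VDR libraries and in 2 GNP, 3 hyperplasia and 0 tumor libraries.

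**Figure D1:**
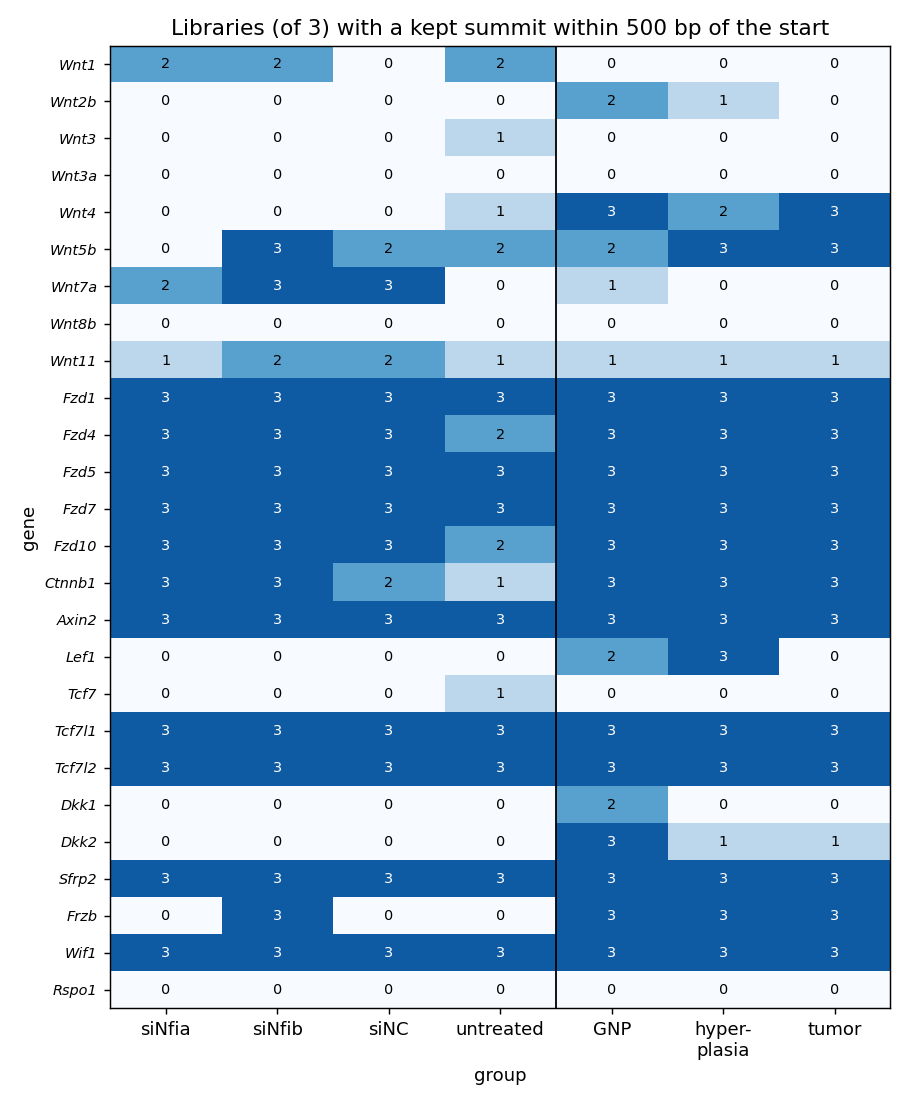
Number of libraries, of 3 in each group, with a kept summit within 500 bp of the transcription start, for the 26 genes with a RefSeq start; rows are genes and columns are groups, the first 4 being VDR cells. Rows such as Fzd1, Axin2 and Wif1 hold 3 in every column, while Frzb holds 3 in siNfib and in the sorted cells and 0 in siNfia, siNC and untreated VDR cells.

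Per 10 kb of window, summits were most dense in GNP at Fzd7 (2.60 on average over 3 libraries), Fzd2 (2.37) and Wnt11 (2.29). They were sparsest there at Wnt8b (0 in all 3 libraries), Rspo2 (0.297) and Lef1 (0.346). In untreated VDR cells the ligands Wnt5b and Wnt7b led with 6.09 and 4.13 summits per 10 kb, against 1.25 and 1.66 in tumor. Windows also hold other genes: that of Wnt1 includes Wnt10b, that of Wnt3 includes Wnt9b, and that of Wnt5b includes Adipor2 and Fbxl14, so a count is that of a stretch of chromosome and not of a gene alone.

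**Figure D2:**
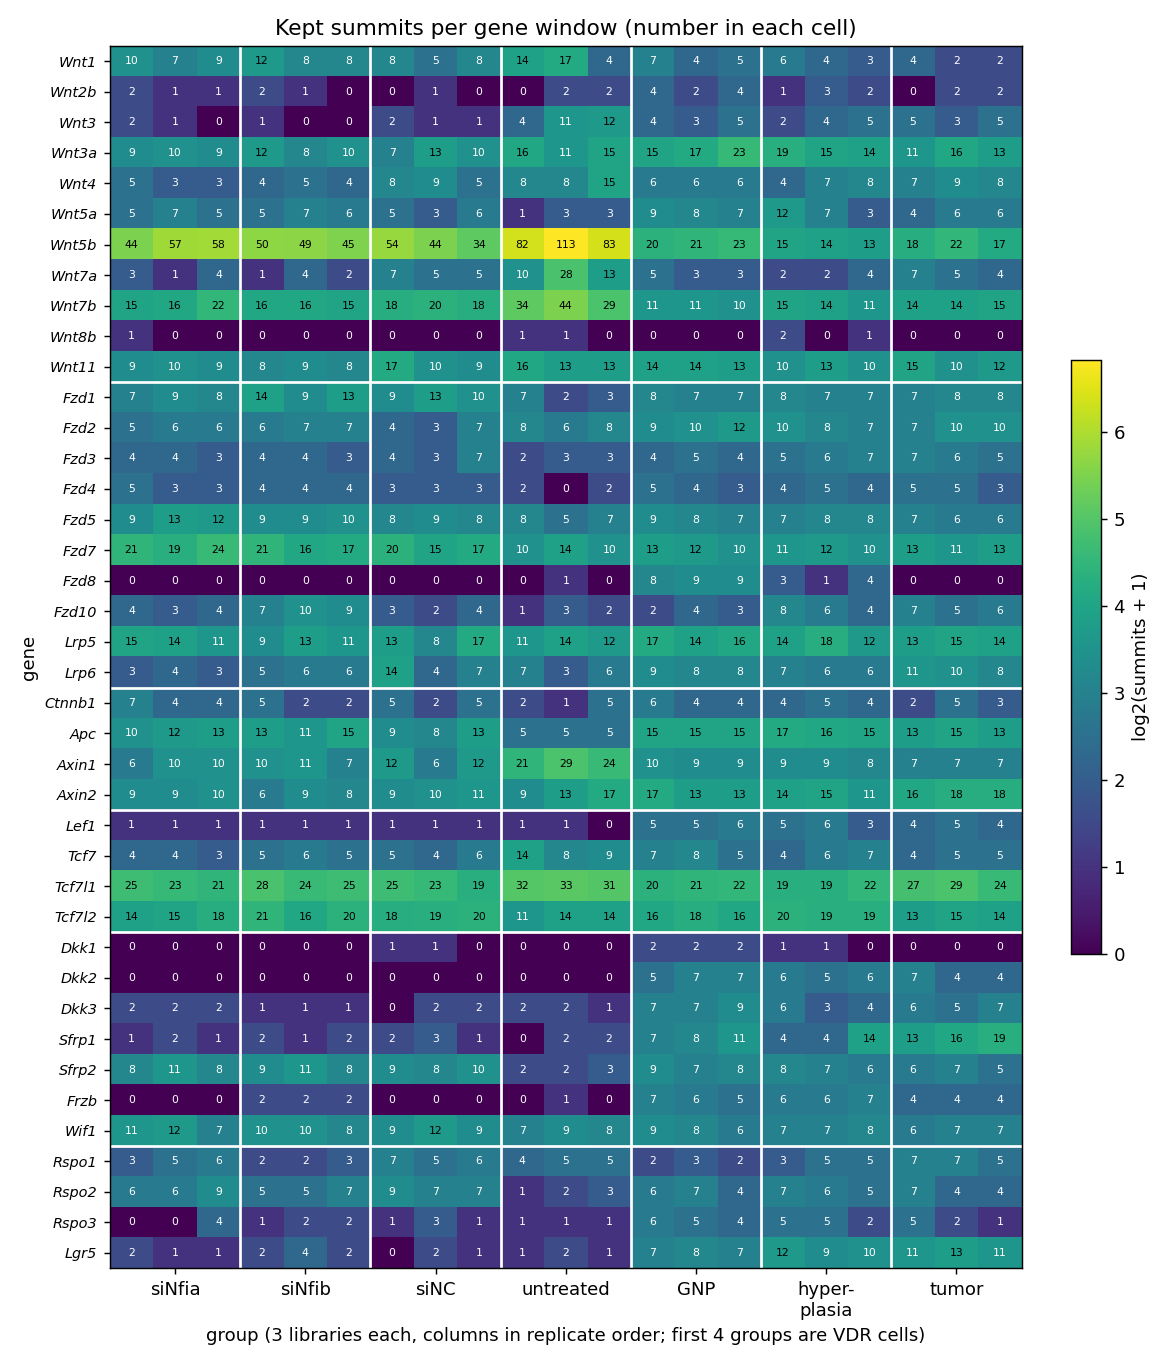
Kept summits in the window of each of the 40 genes (rows, grouped by role) in each of the 21 libraries (columns, 3 per group), with the number printed and the colour showing log2(summits + 1). Wnt5b reaches 113 in an untreated VDR library, and Fzd8, Dkk2, Frzb and Lgr5 are at or near 0 in most VDR columns.

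The stages were compared first, to ask which Wnt genes differ between progenitors, hyperplasia and tumor. Stage, age and signal strength cannot be told apart in these comparisons. Fzd8, a Frizzled receptor gene on chromosome 18, lost its summits step by step. GNP libraries had 8, 9 and 9 summits there, hyperplasia libraries 3, 1 and 4, and tumor libraries 0, 0 and 0. No stage overlapped another. Its 20 neighbouring genes had means of 4.28 (GNP), 4.05 (hyperplasia) and 3.90 (tumor) summits. In limma on log2(summits + 1), with Benjamini-Hochberg adjustment over all genes tested, hyperplasia was lower than GNP by a log2 difference of -1.50 (SE 0.28, adjusted p = 0.0239) and tumor lower than GNP (adjusted p = 0.00115). The fitted tumor difference from GNP, -3.27, depends on the pseudocount because tumor is at 0, and is no bound on the change. The loss in tumor passed in all 6 fits that left out a library (adjusted p 0.00994 to 0.0172) and in the 5 alternatives in which Fzd8 could be tested (6.8e-06 to 0.00881). Fzd8 had enough summits to be tested only through its GNP counts. The loss in hyperplasia did not pass without GNP replicate 1, 2 or 3 or hyperplasia replicate 1, with adjusted p up to 0.0997, nor on whole lists (0.213). The step between hyperplasia and tumor missed the threshold (-1.77, SE 0.28, adjusted p = 0.0505), and passed once the neighbours were subtracted (-1.72, adjusted p = 0.00607).

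The Fzd8 loss included 3 regions of 500 bp that were each in 3 of 3 GNP and 0 of 3 tumor libraries. They were chr18:9211861-9212360, 745 bp outside the gene body, and chr18:9212978-9213477 and chr18:9213866-9214365 inside it. Hyperplasia held them in 2, 2 and 3 of its libraries. In the whole deposited tumor lists the first pair of regions was still in 0 of 3 libraries and the last in 2 of 3. In VDR cells Fzd8 had 0 kept summits in all siNfia, siNfib and siNC libraries and 0, 1 and 0 in untreated ones.

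In hyperplasia against GNP, 37 members had enough summits to be tested, meaning a mean of at least 3 over the 9 libraries of the fit, and 2 were called lower and 0 higher at an adjusted p below 0.05. Over all 14112 genes tested, 2.33% were called lower and 2.18% higher. Beside Fzd8, the call was Wnt5b, a ligand of the β-catenin-independent branch, with 15, 14 and 13 summits in hyperplasia and 20, 21 and 23 in GNP. Its groups did not overlap, and the log2 difference was -0.57 (SE 0.11, limma adjusted p = 0.0239). That call was lost in each of the 6 fits without a library (adjusted p 0.0511 to 0.0885). With neighbours subtracted it held (-0.58, adjusted p = 0.0186), within a range of 0.0186 to 0.703 over the alternatives. The median log2 difference of the 37 members was -0.10, against -0.02 over all genes.

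The libraries of 6 of the 37 members did not overlap, against 17.3% of all genes tested. Of those that did not pass, the largest differences in mean were at Dkk3, Lgr5 and Tcf7l2. Dkk3, a divergent Dickkopf protein, had 6, 3 and 4 summits in hyperplasia and 7, 7 and 9 in GNP (log2 difference -0.73, SE 0.21, limma adjusted p = 0.0791). Lgr5, the R-spondin receptor, had 12, 9 and 10 in hyperplasia and 7, 8 and 7 in GNP (0.44, SE 0.12, adjusted p = 0.0752), and passed with neighbours subtracted (0.61, adjusted p = 0.0187). Tcf7l2, a TCF factor, had 20, 19 and 19 in hyperplasia and 16, 18 and 16 in GNP (0.20, SE 0.08, adjusted p = 0.197). For these 3 genes the groups stood apart in every library while the test over all genes did not pass. On the 50000 strongest summits per list the Lgr5 difference was -0.03, and on whole lists the Tcf7l2 difference was -0.04, so the direction of each depended on the list length.

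In tumor against GNP, 37 members were tested, 2 were called higher and 2 lower, against 3.08% and 3.55% of all genes (6.63% in either direction). Lgr5 and Rspo1, a receptor and ligand pair that strengthens Wnt signals, were the higher ones. Lgr5 had 11, 13 and 11 summits in tumor and 7, 8 and 7 in GNP (log2 difference 0.60, SE 0.12, limma adjusted p = 0.0239). Rspo1 had 7, 7 and 5 in tumor and 2, 3 and 2 in GNP (1.14, SE 0.20, adjusted p = 0.0184). In neither gene did tumor overlap GNP, and hyperplasia lay between them for Rspo1 with 3, 5 and 5. Subtracting the neighbours left both called (0.75, adjusted p = 0.00549 for Lgr5, and 1.26, adjusted p = 0.00415 for Rspo1). The Lgr5 call was lost in all 6 fits without a library (adjusted p 0.0553 to 0.0862), on the 50000 strongest summits (0.25, adjusted p = 0.505), on whole lists (adjusted p = 0.0819), with all 21 libraries in the fit (0.354) and with a replicate block (0.0562). The Rspo1 call was lost without GNP replicate 1 or 3 or tumor replicate 1 or 2 (up to 0.0715). On whole lists Rspo1 had the opposite sign (-0.47, adjusted p = 0.181).

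The lower members were Fzd8 and Axin1, the scaffold of the destruction complex. Axin1 had 7, 7 and 7 summits in tumor and 10, 9 and 9 in GNP (log2 difference -0.37, SE 0.09, limma adjusted p = 0.0471). The groups did not overlap, but the call was lost in all 6 fits without a library (adjusted p 0.0902 to 0.14) and with neighbours subtracted (-0.30, adjusted p = 0.275), and on the 50000 strongest summits the sign turned (0.32, adjusted p = 0.00881). Dkk1, the best known secreted inhibitor of Lrp5 and Lrp6, fell under the minimum for testing, at 2 summits in each GNP library, 1, 1 and 0 in the hyperplasia libraries and 0 in each tumor library. The median difference of the 37 tested members was -0.16, against -0.05 over all genes.

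Other members did not overlap between tumor and GNP without passing. The 3 with the largest differences in mean were Sfrp1, Tcf7l1 and Wnt7b. Sfrp1, a secreted Frizzled-related antagonist, had 13, 16 and 19 summits in tumor and 7, 8 and 11 in GNP (0.82, SE 0.39, limma adjusted p = 0.239), while hyperplasia spread over both with 4, 4 and 14. Tcf7l1, mostly a repressor among the TCF factors, had 27, 29 and 24 in tumor and 20, 21 and 22 in GNP (0.33, SE 0.09, adjusted p = 0.0662). The neighbours of Tcf7l1 averaged 8.23 summits in tumor and 6.72 in GNP, and with them subtracted it did not pass either. Wnt7b had 14, 14 and 15 in tumor and 11, 11 and 10 in GNP (0.39, SE 0.11, adjusted p = 0.0689), and its sign turned on whole lists (-0.23) and on the 50000 strongest (-0.06). In all, 12 of the 37 tested members had libraries that did not overlap between tumor and GNP, 7 higher and 5 lower in tumor, against 20.7% of all genes tested.

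In tumor against hyperplasia, 37 members were tested and 0 were called by limma, against 0.198% of all genes. An unadjusted p below 0.05 was reached by 12 members, against 2366 of all 14112 genes. Libraries did not overlap at 8 members, against 11.6% of all genes. Tcf7l2 had 13, 15 and 14 summits in tumor and 20, 19 and 19 in hyperplasia (log2 difference -0.44, SE 0.08, adjusted p = 0.0602). It passed in 3 of 9 alternatives, among them the 50000 strongest summits (-0.96, adjusted p = 0.0395), and in 0 of 6 fits without a library. Tcf7l1 had 27, 29 and 24 in tumor and 19, 19 and 22 in hyperplasia (0.40, SE 0.09, adjusted p = 0.0866), so these TCF factors stood apart from hyperplasia in opposite directions, in every library. Wnt5b had 18, 22 and 17 in tumor and 15, 14 and 13 in hyperplasia (0.41, SE 0.11, adjusted p = 0.108). The neighbours moved the same way at all 3 genes. Their means in tumor and hyperplasia were 8.23 and 6.55 around Tcf7l1, 12.1 and 9.83 around Wnt5b, and 5.57 and 6.30 around Tcf7l2. With neighbours subtracted, none of the 3 passed. Frzb had 4, 4 and 4 in tumor against 6, 6 and 7 in hyperplasia (-0.55, SE 0.13, adjusted p = 0.0866). The members' median difference was -0.02 and that of all genes -0.01.

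**Figure D3:**
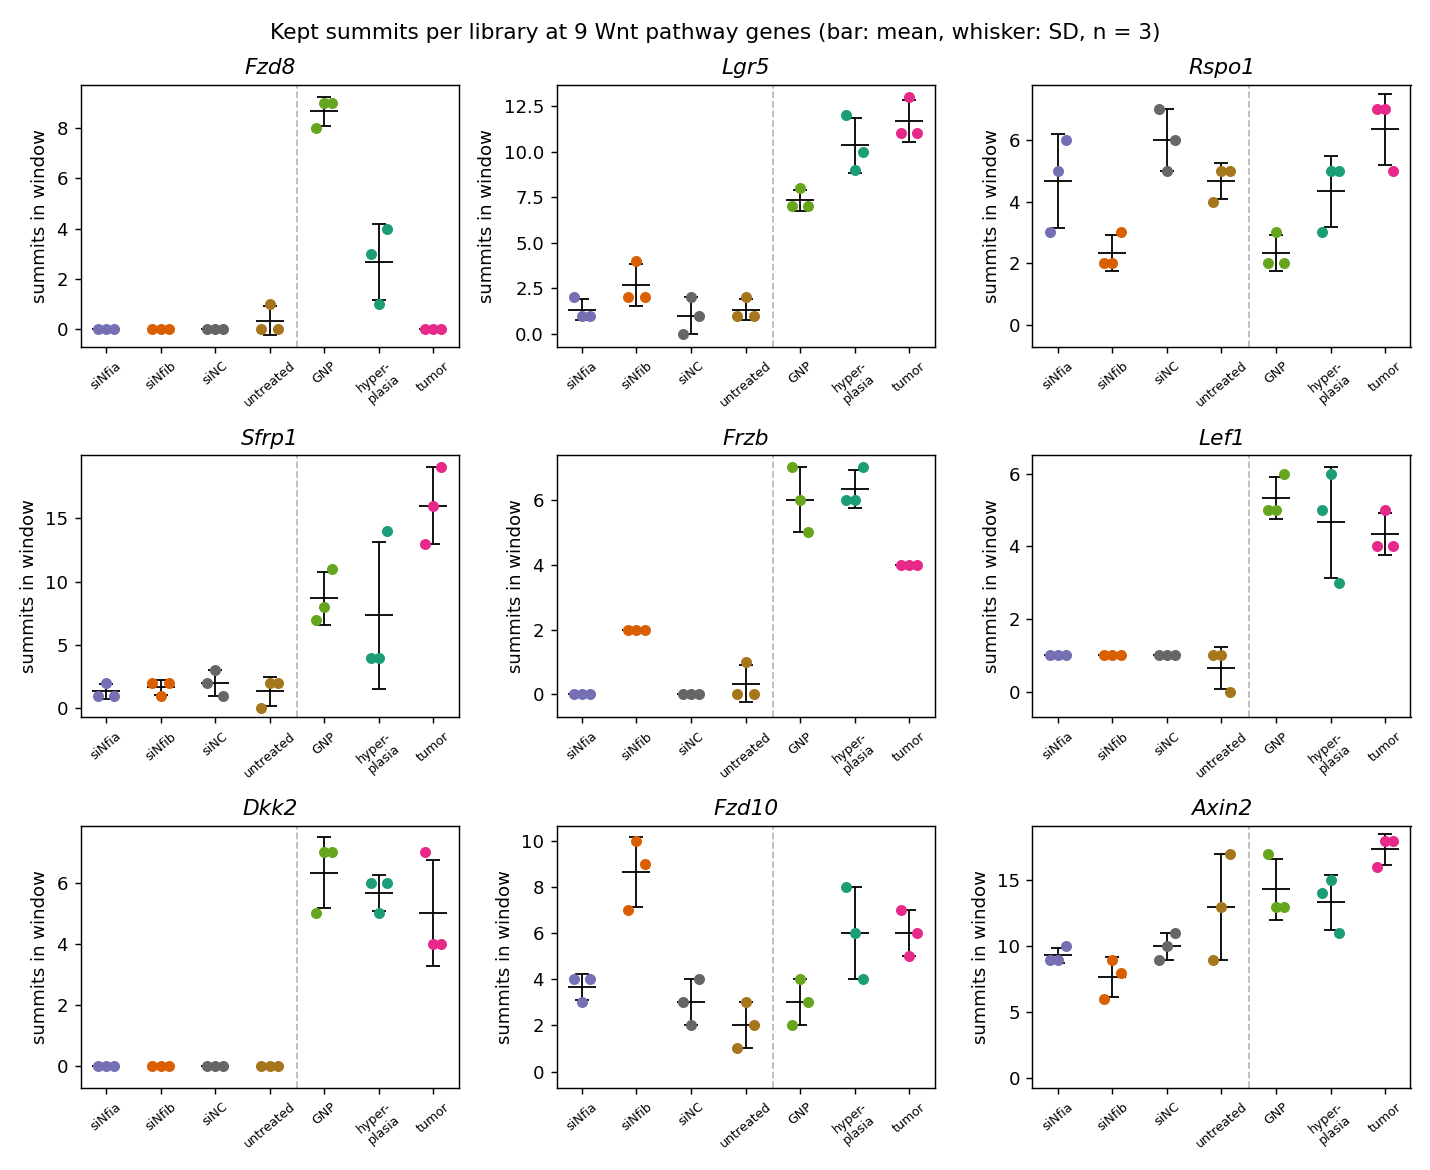
Kept summits per library (points), mean (bar) and SD (whisker, n = 3) at 9 genes; VDR groups are left of the dashed line and sorted stages right of it. Fzd8 falls to 0 in tumor, Lgr5 lies at 7 to 13 in the sorted cells and at 0 to 4 in VDR cells, and Frzb is at 2 in each siNfib library and 0 in each siNC library.

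Single regions were compared next. Merging the kept summits of all libraries gave 908 regions of 500 bp in the member windows, of which 38 were occupied in all 21 libraries, 117 in all 9 libraries of sorted cells and 436 in a single library. Between tumor and GNP, 11 regions were gained, meaning 3 of 3 tumor and 0 of 3 GNP libraries, and 9 were lost. That was 3.41% and 2.79% of the 323 member regions occupied in either group, against 4.31% and 4.0% of such regions near any gene. Hyperplasia gained 6 and lost 7 against GNP (1.86% and 2.17% of 322, against 4.06% and 3.96% over all genes). Tumor gained 8 and lost 5 against hyperplasia (2.45% and 1.53% of 327, against 1.79% and 1.82%). At Lgr5, chr10:115468871-115469370 in the gene body was in 0 GNP, 3 hyperplasia and 3 tumor libraries. At Sfrp1, chr8:23403415-23403914, 7718 bp outside the gene, was in 3 tumor libraries and, among kept summits, in 0 of any other group. At Axin2, chr11:108935220-108935719 in the gene body was in 0 GNP, 1 hyperplasia and 3 tumor libraries and in 0 VDR libraries. On whole lists the Sfrp1 region was in 2 hyperplasia and 0 GNP libraries, whereas the Lgr5 region was in all 3 and the Axin2 region in 2 of them outside the 100000 kept.

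Around the Dkk2 start the order ran the other way. A summit lay within 500 bp in 3 GNP libraries, 1 hyperplasia and 1 tumor library. The start region itself was occupied in 3, 1 and 0. It runs past the end of the sequence above, where the capitals mark only a single summit position. On whole lists this start region was in 3, 3 and 2. Over the whole window the counts overlapped, at 5, 7 and 7 in GNP, 6, 5 and 6 in hyperplasia and 7, 4 and 4 in tumor.

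Among 62 further Wnt pathway genes, 58 could be tested between the stages. In hyperplasia against GNP, 1 was higher, Btrc, the ubiquitin ligase subunit that recognises phosphorylated β-catenin, with 18 ± 1 summits in hyperplasia and 9 ± 1 in GNP (SD, n = 3 each, log2 difference 0.93, limma adjusted p = 0.0127). The 3 lower ones were the planar polarity genes Celsr1 (-0.53) and Prickle2 (-0.46) and Porcn (-0.35), the enzyme that lipidates Wnt ligands. In tumor against GNP, 0 were higher and 2 lower, Porcn (-0.52, adjusted p = 0.01) and Celsr1 (-0.43, adjusted p = 0.0372). Between tumor and hyperplasia 0 of the 58 were called by limma, with 8 at an unadjusted p below 0.05, against 2366 of all 14112 genes.

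The line was then set against the tumor it models. Every tumor library had a higher score at rank 100000 than any untreated or siNC VDR library, and how far this moves the counts was not tested. A cell line and sorted tissue also differ by culture and sorting, which cannot be told apart from the groups here. The untreated and siNC comparisons share the tumor libraries, so their values are given side by side. The median log2 difference over the 13608 genes tested was -0.20 for untreated VDR cells against tumor (0.074 with 500-bp regions and -0.057 on the 50000 strongest summits) and 0.11 for siNC-treated cells against tumor, and for the 31 members tested it was -0.17 and -0.07.

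Untreated VDR cells had 6 members higher and 10 lower than tumor, against a background of 20.3% and 28.3% of all genes (48.6% in either direction). That balance depended on the list: 5 were higher and 2 lower on the 50000 strongest summits, 7 and 4 with 500-bp regions, and 5 and 20 on whole lists. With siNC 2 were higher and 6 lower, against 16.4% and 8.85% (25.2% in either direction). Fitting tumor and siNC alone, a choice made after seeing the data, gave 7 higher and 6 lower, and fitting all 21 libraries 6 and 8. Lgr5 and Sfrp1 were lower in both. Lgr5 had 0, 2 and 1 summits with siNC and 1, 2 and 1 in untreated cells, against 11, 13 and 11 in tumor. Sfrp1 had 2, 3 and 1 with siNC and 0, 2 and 2 in untreated cells, against 13, 16 and 19 in tumor. Neither gene overlapped tumor in any of these libraries.

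For Lgr5 the log2 difference was -2.80 with siNC (SE 0.37, limma adjusted p = 0.000106) and -2.46 in untreated cells (SE 0.37, adjusted p = 7.96e-05). For Sfrp1 it was -2.54 with siNC (SE 0.40, adjusted p = 0.000327) and -3.02 in untreated cells (SE 0.40, adjusted p = 2.43e-05). With neighbours subtracted, Lgr5 stayed lower by -2.27 and -1.44 and Sfrp1 by -1.87 and -1.94, in siNC-treated and untreated cells, all called. Both genes were called under every alternative in which they could be tested and in all 6 fits without a library, in each of the comparisons. They reached the testing minimum only through their tumor counts, so these calls come from genes admitted by the group where they are high. Of the 45 regions that siNC-treated cells lost against tumor, Lgr5 held 6 and Sfrp1 5. A region is counted as lost here at 3 of 3 tumor and 0 of 3 siNC libraries. Of the 399 member regions occupied in either group 11.3% met this, against 9.4% of regions near any gene. Untreated cells lost 57 regions against tumor and gained 7 (7.38% and 0.907% of 772, against 7.93% and 1.14% over all genes). Of these losses 7 were at Lgr5 and 6 at Sfrp1.

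In this fit 9 members fell below the testing minimum. Dkk2 had 0 summits in every VDR library of all treatments, against 7, 4 and 4 in tumor. Lef1, the TCF/LEF factor that is itself a Wnt target, had 1, 1 and 1 with siNC and 1, 1 and 0 in untreated cells, against 4, 5 and 4 in tumor. Frzb had 0 in each siNC library and 0, 1 and 0 in untreated cells, against 4, 4 and 4 in tumor. These 3 genes, described because their libraries did not overlap tumor in either kind of line cells, were left out of the main test. The neighbours of Dkk2, Lef1 and Frzb averaged 5.37, 4.62 and 5.15 summits in tumor. In untreated cells these means were 2.22, 2.48 and 1.28, and with siNC 4.72, 4.70 and 3.75. Fzd4 had 3, 3 and 3 with siNC and 2, 0 and 2 in untreated cells, against 5, 5 and 3 in tumor, so the siNC libraries touched tumor and the untreated ones did not. Rspo3 and Wnt2b overlapped tumor in both, and Fzd8, Dkk1 and Wnt8b had 0 summits in tumor itself. The Lef1 summit left in siRNA-treated cells was at chr3:131237724-131238223, 13617 bp outside the gene body, in all 9 siRNA-treated libraries and all 9 libraries of sorted cells but 0 untreated VDR libraries.

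Other antagonists and receptors were lower in part. Dkk3 had 0, 2 and 2 summits with siNC and 2, 2 and 1 in untreated cells, against 6, 5 and 7 in tumor (log2 difference -1.74 and -1.41, limma adjusted p = 0.00572 and 0.01). Its 20 neighbours fell as well, to means of 5.22 with siNC and 4.68 in untreated cells, against 11.9 in tumor, and with them subtracted Dkk3 did not pass (adjusted p = 0.206 and 0.731). Apc, the tumor suppressor of the destruction complex, had 5, 5 and 5 in untreated cells, against 13, 15 and 13 in tumor (-1.29, SE 0.20, adjusted p = 9.67e-05, and -0.69 with neighbours subtracted, adjusted p = 0.0303). Apc on the 50000 strongest summits did not pass (adjusted p = 0.133). With siNC it had 9, 8 and 13, which overlap tumor.

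The 6 other members lower in untreated VDR cells were Fzd10 (log2 difference -1.27, limma adjusted p = 0.00381), Rspo2 (-1.02, adjusted p = 0.0105), Sfrp2 (-1.07, adjusted p = 0.00142), Wnt5a (-0.98, adjusted p = 0.0213), Fzd3 (-0.94, adjusted p = 0.0139) and Fzd1 (-0.92, adjusted p = 0.0182). With neighbours subtracted, Fzd10 and Rspo2 stayed lower (adjusted p = 0.0407 and 0.0342), and the other 4 did not pass (adjusted p 0.376 to 0.7). Single libraries decided some of these: the Rspo2 and Fzd3 calls were lost without tumor replicate 1 (adjusted p = 0.0705 and 0.0661), Wnt5a without tumor replicate 2 or 3 or VDR replicate 1 (up to 0.0842) and Fzd1 without tumor replicate 2 or 3 or VDR replicate 2 or 3 (up to 0.0879). Fzd10 reached the testing minimum only through its tumor counts. The main fit called none of the 6 with siNC. Sfrp2 had 9, 8 and 10 summits with siNC, against 6, 7 and 5 in tumor. Fzd1 had 9, 13 and 10, against 7, 8 and 8, and both were higher without overlap. Fzd10 had 3, 2 and 4, against 7, 5 and 6, lower without overlap. Rspo2 (9, 7 and 7), Wnt5a (5, 3 and 6) and Fzd3 (4, 3 and 7) touched or overlapped tumor. The fit of all 21 libraries called Sfrp2 higher and Fzd10 lower.

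Of the 9 ligands tested, 2 were called higher and 1 lower with siNC, against 16.4% and 8.85% of all genes. In untreated cells 4 were higher and 1 lower, against 20.3% and 28.3%. The most summits were at Wnt5b. It had 54, 44 and 34 summits with siNC and 82, 113 and 83 in untreated cells, against 18, 22 and 17 in tumor. The log2 difference was 1.15 with siNC (SE 0.17, limma adjusted p = 0.000262) and 2.22 in untreated cells (SE 0.17, adjusted p = 2.65e-07), with no overlap. Its neighbours rose too, to means of 22.2 with siNC and 35.7 in untreated cells, against 12.1 in tumor. With them subtracted, the untreated difference was 0.91 (adjusted p = 0.00193) and the siNC difference 0.36 (adjusted p = 0.146). Of 19 regions gained with siNC against tumor in the member windows (4.76% of 399, against 4.48% over all genes), 6 were at Wnt5b. Among them chr6:119430272-119430771 was in all 9 siRNA-treated libraries and in 0 of the 9 sorted ones, or 1 hyperplasia and 1 tumor library on whole lists.

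Wnt1, the ligand of the midbrain-hindbrain boundary, had 8, 5 and 8 summits with siNC and 14, 17 and 4 in untreated cells, against 4, 2 and 2 in tumor. siNC-treated cells did not overlap tumor and untreated cells did (log2 difference 1.14 and 1.64, limma adjusted p = 0.0428 and 0.00303). Neither passed with neighbours subtracted (0.02 and 0.42, adjusted p = 0.981 and 0.497), and the siNC call was lost in 5 of 6 fits without a library (up to 0.161). Wnt7b had 34, 44 and 29 in untreated cells, against 14, 14 and 15 in tumor (1.24, adjusted p = 1.9e-05), and Wnt7a 10, 28 and 13, against 7, 5 and 4 (1.41, adjusted p = 0.00151). Both stood apart from tumor in every library, and neither passed with neighbours subtracted (adjusted p = 0.482 and 0.254). On the 50000 strongest summits the Wnt7a difference was 0.057 (adjusted p = 0.935).

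Axin1 and Tcf7 were higher in untreated VDR cells beyond their neighbours. Axin1 had 21, 29 and 24 summits there, against 7, 7 and 7 in tumor (log2 difference 1.67, SE 0.23, limma adjusted p = 3.13e-05, and 1.46 with neighbours subtracted, adjusted p = 0.00165). With siNC it had 12, 6 and 12, which overlap tumor. The Axin1 window also holds 6 other genes, which are not among the neighbours subtracted, so the difference is not that of Axin1 alone. Tcf7, a TCF factor best known from T cells, had 14, 8 and 9 in untreated cells, against 4, 5 and 5 in tumor (0.97, SE 0.24, adjusted p = 0.0038, and 0.86 with neighbours subtracted, adjusted p = 0.0249), but the sign turned on whole lists (-0.13, adjusted p = 0.723).

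With siNC, 3 more members were lower than tumor. Axin2 had 9, 10 and 11 summits with siNC, against 16, 18 and 18 in tumor (log2 difference -0.74, SE 0.20, limma adjusted p = 0.0137). Wnt3, a canonical ligand, had 2, 1 and 1, against 5, 3 and 5 (-1.20, SE 0.35, adjusted p = 0.0217), and Fzd2 4, 3 and 7, against 7, 10 and 10 (-0.87, SE 0.26, adjusted p = 0.0234). Axin2 and Wnt3 did not overlap tumor, while Fzd2 did. None of these 3 passed with neighbours subtracted (adjusted p = 0.179, 0.214 and 0.503). Leaving out single libraries ended the Axin2 call in 3 of 6 fits (up to 0.0621), the Wnt3 call in 4 (up to 0.0985) and the Fzd2 call in 4 (up to 0.119). In untreated cells Axin2 had 9, 13 and 17 summits, Wnt3 4, 11 and 12, and Fzd2 8, 6 and 8. All 3 overlapped tumor there and none was called in the main fit. With neighbours subtracted, Wnt3 was called higher in untreated cells than in tumor. Wnt3 reached the testing minimum only through its untreated counts.

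**Figure D4:**
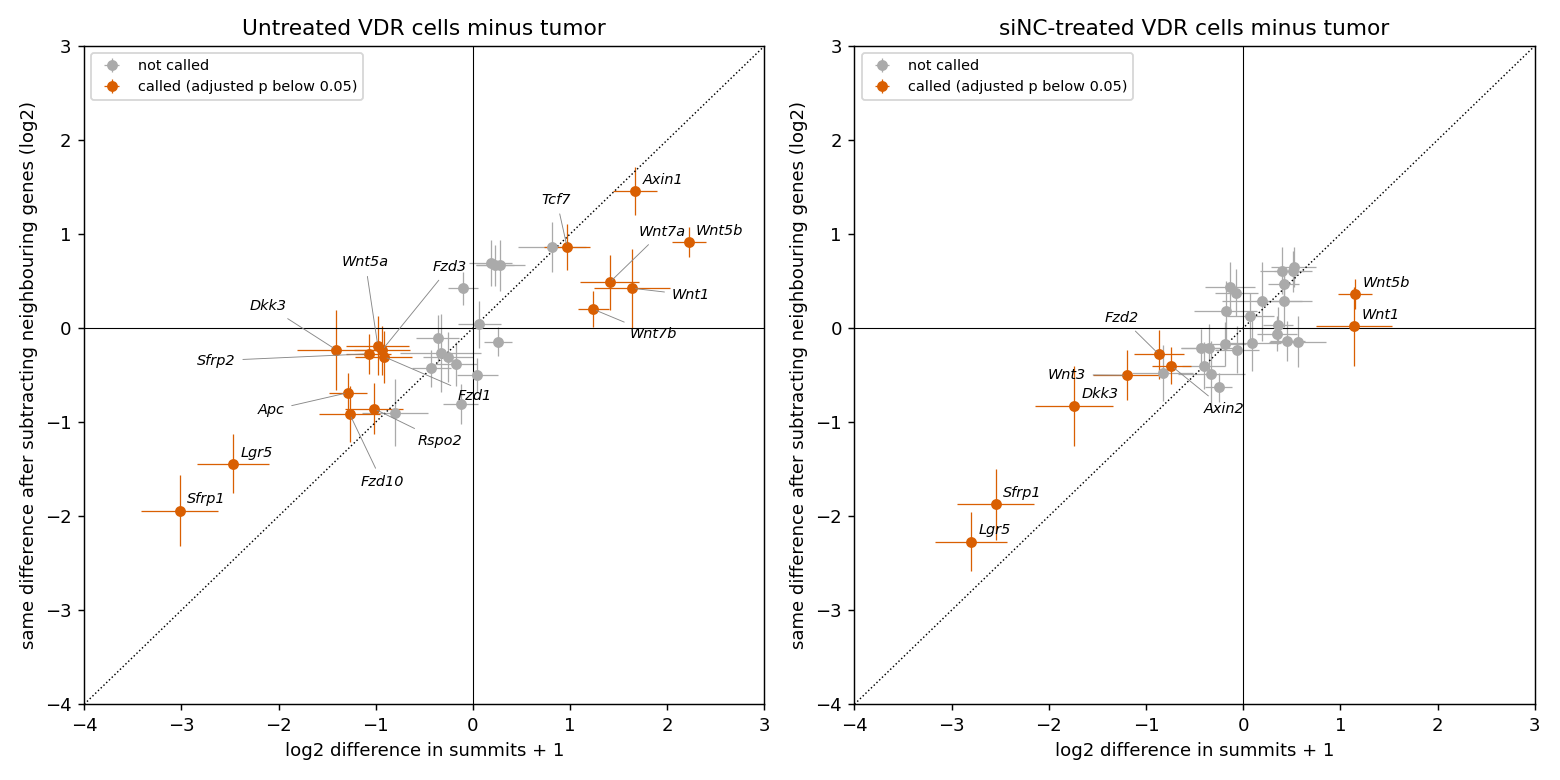
Log2 difference in summits + 1 between VDR cells and tumor (horizontal) against the same difference after subtracting the mean of neighbouring genes (vertical; 20 genes, or 15 for Lrp5), for untreated (left) and siNC-treated (right) cells; points are the 31 tested members, whiskers are SE, orange points passed the test and the dotted line marks equality. Lgr5 and Sfrp1 lie far below 0 on both axes in both panels, while Wnt1 and Wnt7b lie near 0 on the vertical axis.

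Libraries did not overlap tumor at 15 of 31 members with siNC and at 16 of 31 in untreated cells, against 42.0% and 50.3% of all genes. Those that did not pass included Tcf7l2 with siNC, at 18, 19 and 20 summits against 13, 15 and 14 in tumor (log2 difference 0.42, limma adjusted p = 0.0633). Fzd7 had 20, 15 and 17 against 13, 11 and 13 (0.45, adjusted p = 0.0779), and Wnt7b 18, 20 and 18 against 14, 14 and 15 (0.36, adjusted p = 0.114). The Fzd7 difference was -0.14 with neighbours subtracted. In untreated VDR cells the corresponding genes were Tcf7l1, at 32, 33 and 31 against 27, 29 and 24 (0.26, adjusted p = 0.14, and -0.15 with neighbours subtracted), and Lrp6, a Wnt co-receptor, at 7, 3 and 6 against 11, 10 and 8 (-0.80, adjusted p = 0.0644).

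Of 55 further Wnt pathway genes tested, 16 were higher and 20 lower in untreated VDR cells than in tumor, against 20.3% and 28.3% of all genes. With siNC 9 were higher and 6 lower, against 16.4% and 8.85%. Among the largest in untreated cells were Lgr6 (log2 difference 1.81), Csnk1e (1.48), Wnt6 (1.46), Wnt9b (1.46) and Celsr1 (1.43) on the higher side, and Pygo1 (-2.11), Sfrp4 (-2.10), Apcdd1 (-1.88), Bcl9 (-1.62) and Csnk1a1 (-1.41) on the lower. With siNC the largest were Nkd1 (1.09), Wnt10b (0.98), Pygo2 (0.85), Wnt6 (0.71) and Ptk7 (0.68) higher, and Kremen1 (-1.33), Ryk (-1.22), Tle3 (-0.93), Apcdd1 (-0.67) and Celsr3 (-0.61) lower. Wnt10b lies in the Wnt1 window and Wnt9b in the Wnt3 window, so their counts are not separate from those of these members. Nkd1, an intracellular inhibitor that Wnt signals induce, had 53.3 ± 5.03 summits with siNC and 53.3 ± 4.04 in untreated cells, against 24.7 ± 4.51 in tumor (SD, n = 3 each, limma adjusted p = 0.000102 and 2.4e-05). It stayed called with neighbours subtracted (0.65 and 0.64, adjusted p = 0.0165 and 0.0136). Granule progenitor markers also differed between line and tumor: of 9 tested, 1 was higher and 6 lower in untreated cells, and 3 were higher and 2 lower with siNC. Their sum ran the other way in untreated cells, at 450 to 506 summits, against 220 to 245 in tumor, and was 247 to 284 with siNC. Marker lists of other cell types moved as well: 6 microglial genes summed to 22 to 34 summits with siNC and 39 to 46 in untreated cells, against 17 to 21 in tumor. The 6 oligodendrocyte genes summed to 35 to 42 with siNC and 31 to 41 in untreated cells, with 1 gene at 0 in each, against 64 to 66 in tumor. The part of these lists in the differences of Wnt genes was not tested.

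Both knockdowns were compared with the same siNC libraries, to ask what loss of Nfia or Nfib does to the same genes. With siNfia, 28 members were tested and 0 were called by limma, as were 0 (0.0%) of all 13542 genes, while 4 members and 1509 genes had an unadjusted p below 0.05. Wnt7a had 3, 1 and 4 summits with siNfia and 7, 5 and 5 with siNC, without overlap (log2 difference -0.95, SE 0.36, adjusted p = 0.36). It was the only member whose libraries did not overlap, against 8.62% of all genes. Wnt7a reached the testing minimum only through its siNC counts. The Nfia comparison gained 0 and lost 2 regions in the member windows, at Lrp6 and Wnt5b (0% and 0.583% of 343, against 0.841% and 0.847% over all genes).

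With siNfib, 28 members were tested, 1 was called higher and 1 lower, against 0.354% and 0.583% of all genes (0.938% in either direction). Fzd10 had 7, 10 and 9 summits with siNfib and 3, 2 and 4 with siNC. The groups did not overlap (log2 difference 1.29, SE 0.22, limma adjusted p = 0.017), and the difference held with neighbours subtracted (1.41, SE 0.21, adjusted p = 0.00654). With siNfia the gene had 4, 3 and 4. The Fzd10 call was lost without siNC replicate 1 or 2 and without any siNfib replicate (adjusted p up to 0.135), and on whole lists or with regions in place of summits (up to 0.506 over the alternatives). A summit lay at positions -247, -239 and -236 from the start in the siNfib libraries, in the capitals at the left end of the sequence above, and at -244, -239 and -269 in the siNC libraries. A second summit just after the start was in all 3 siNfib libraries and 1 siNC library. The region chr5:128596711-128597210, 4145 bp before the start, was in 3 siNfia, 3 siNfib, 1 siNC and 1 untreated library, and in 0 GNP, 3 hyperplasia and 3 tumor libraries. On whole lists it was in all libraries of these groups except the untreated ones, where it stayed at 1.

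Rspo1 had 2, 2 and 3 summits with siNfib and 7, 5 and 6 with siNC, without overlap (log2 difference -1.07, SE 0.24, limma adjusted p = 0.048). Its neighbours averaged 9.12 with siNfib and 11.2 with siNC, and with them subtracted the call was lost (-0.75, adjusted p = 0.172), as it was in all 6 fits without a library (0.0998 to 0.212). The siNfia libraries, at 3, 5 and 6, overlapped siNC. A region 8515 bp outside the gene, chr4:125017367-125017866, was in 2 siNfia, 0 siNfib and 3 siNC libraries. On whole lists it was in all 9 of them.

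Frzb had 2, 2 and 2 summits with siNfib and 0, 0 and 0 with siNC or siNfia, too few to be tested. The start region chr2:80447163-80447662 was in 3 siNfib libraries, 0 siNfia, 0 siNC and 0 untreated VDR libraries, and in all 9 libraries of sorted cells. Its summits lay at -39, -43 and -37 bp from the start in the siNfib libraries and between -80 and -17 bp in the sorted cells, within the capitals of the Frzb sequence. On whole lists this region was in 2 siNfia, 3 siNfib and 1 siNC libraries, so weaker summits existed there in the other treatments. A neighbouring region 1118 bp before the start, chr2:80448264-80448763, was in 2 siNfib, 3 GNP and 3 hyperplasia libraries and in 0 siNfia, siNC, untreated VDR and tumor libraries. On whole lists it was in 3 siNfib, 3 tumor, 1 siNfia and 1 siNC libraries. The score at rank 100000 was 8.25 to 17.4 with siNfib and 4.95 to 9.61 with siNC, and the part of this difference in the Frzb result was not tested.

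**Figure D5:**
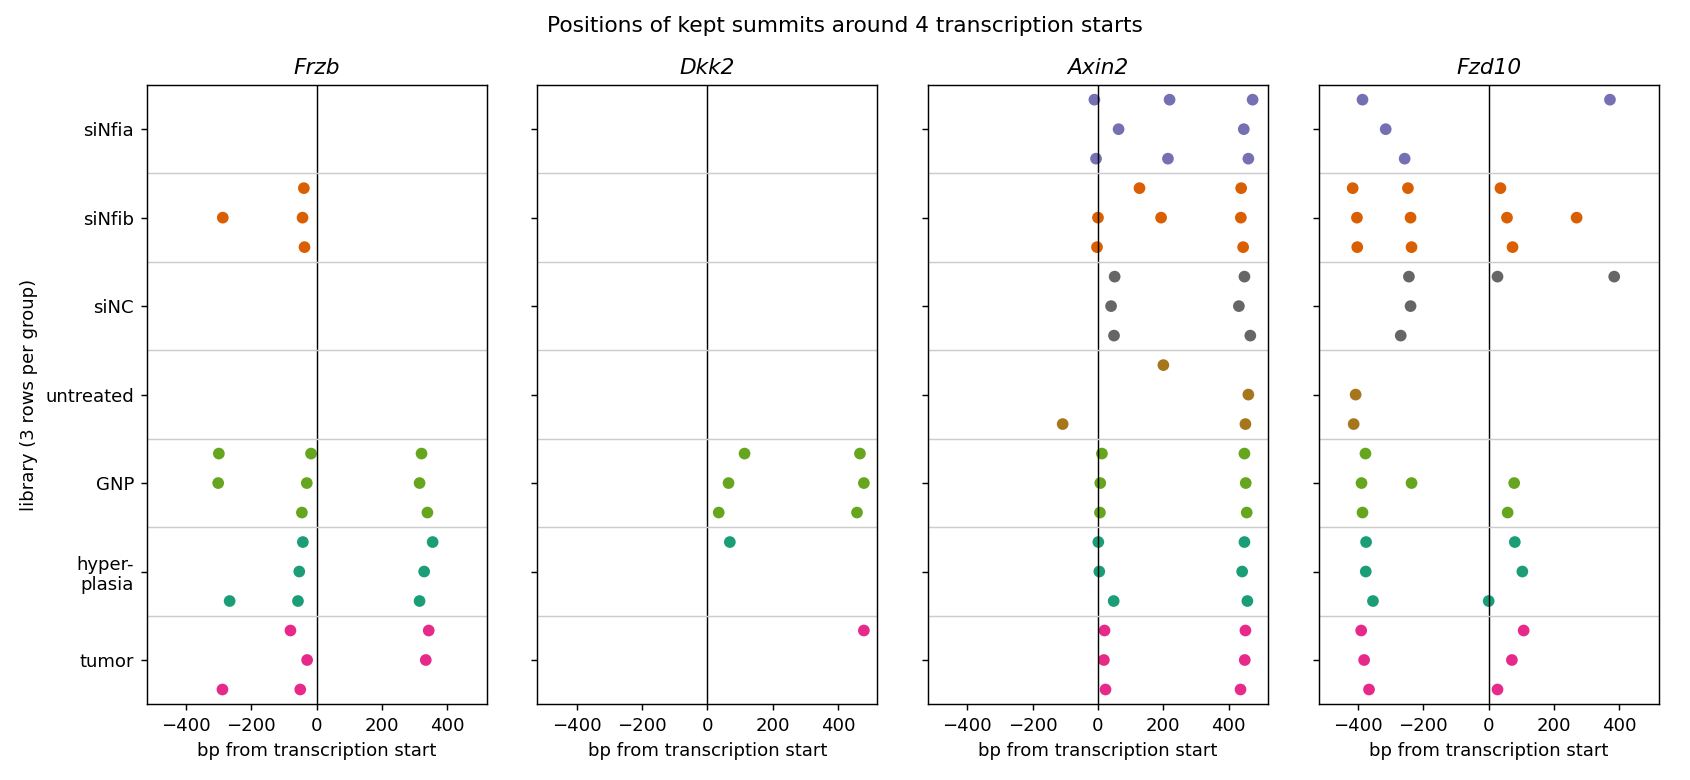
Distance in bp of each kept summit from the transcription start at Frzb, Dkk2, Axin2 and Fzd10, with libraries as rows in groups of 3 and colours marking groups. Frzb summits just before the start appear in siNfib and in the sorted cells and not in siNfia, siNC or untreated cells, and Dkk2 has none in VDR cells.

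In the member windows 7 regions were gained and 7 lost with siNfib against siNC (2.15% each of 326, against 3.02% and 1.88% over all genes). The gains were 2 at Wnt1 and 1 each at Frzb, Lgr5, Sfrp2, Tcf7l1 and Tcf7l2. The Lgr5 region, chr10:115587526-115588025, was in 1 siNfia, 3 siNfib, 0 siNC and 0 untreated library and in all 9 of the sorted cells. On whole lists it was in 2 siNfia and 2 siNC libraries as well. Of the losses, 2 were upstream of Axin2, at chr11:108900665-108901164 and chr11:108901629-108902128, each in 3 siNfia, 0 siNfib and 3 siNC libraries and in all GNP, hyperplasia and tumor libraries. On whole lists the siNfib libraries held the first in 3 of 3 and the second still in 0 of 3. The Axin2 window as a whole had 6, 9 and 8 summits with siNfib and 9, 10 and 11 with siNC, which touch (log2 difference -0.36, SE 0.16, limma adjusted p = 0.335).

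With siNfib 5 of 28 members did not overlap siNC, against 12.8% of all genes. The 3 of these that did not pass were Wnt7a, with 1, 4 and 2 summits against 7, 5 and 5 with siNC (log2 difference -1.09, limma adjusted p = 0.171), Wnt7b, with 16, 16 and 15 against 18, 20 and 18 (-0.24, adjusted p = 0.48), and Fzd4, with 4, 4 and 4 against 3, 3 and 3 (0.32, adjusted p = 0.545). Wnt7a was again admitted to the test only through its siNC counts. The Wnt7b sign turned on whole lists and on the 50000 strongest summits (0.13 in each). The median difference of the 28 members was 0.01, against 0.03 over all genes. Of the 52 further Wnt pathway genes tested, 1 was called with siNfib, Ctnnbip1, which blocks β-catenin from TCF factors, with 13.3 ± 2.52 summits against 6.33 ± 2.08 with siNC (SD, n = 3 each, log2 difference 1.00, adjusted p = 0.0379, and 1.12 with neighbours subtracted, adjusted p = 0.0204). With siNfia 0 of the 52 were called by limma, with 4 at an unadjusted p below 0.05, against 1509 of all 13542 genes.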

How the data were processed

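The deposited files were summit lists from MACS2, 1 per library. Each summit carries a deposited score on the −log10 scale, and whether it is that of a p or q value, and the call threshold, are not given in the sources used here. Per the submitters' processing notes, Bowtie2, Picard and MACS2 were used with mm10, and read depth is unknown. Gene bodies came from RefSeq. Kept summits (the 100000 highest per list) within 20 kb of a gene body were counted, and log2(summits + 1) was tested with limma 3.58.1 (trend, R 4.3.3) in 3 fits of 9 libraries: the sorted stages, tumor with untreated and siNC cells, and the siRNA groups. Genes with a mean of at least 3 summits over the fit were tested, with Benjamini-Hochberg adjustment over all of them and a threshold of 0.05. A gene could thus enter through the group where it was high. Fzd8 did so through GNP, and Lgr5, Sfrp1, Dkk3 and Fzd10 through tumor in the fit with VDR cells. In that fit Wnt3 entered through untreated cells, and in the siRNA fit Wnt7a entered through siNC. As a baseline, the mean of up to 10 nearest genes not overlapping on each side was subtracted (20 in all, 15 for Lrp5). Python 3.11.15, numpy 2.4.6, pandas 2.3.3 and matplotlib 3.10.9 were used otherwise.

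On simulated data the test recovered 10 to 24 of 100 genes changed 2-fold and 80 to 89 of 100 changed 4-fold, with 2 to 6 false calls. The changed genes were drawn only from genes with clearly more summits than the testing minimum requires. The simulated spread was set beforehand and not estimated from the data. These rates therefore do not describe the test for members with few summits. Named members were those called, and of those not called the 3 with groups that did not overlap and the largest difference in mean. Others were chosen after their values were seen. The members and lists were chosen with earlier results of these data known. Alternatives were list length, gene body alone, 500-bp regions, all 21 libraries, no filter, pseudocount 0.5, neighbours, a replicate block and leaving out libraries.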

Additional observations from a re-analysis of the deposited data

How the results depend on the processing

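Counts of members called moved as follows. In hyperplasia against GNP (2 called) whole lists gave 0, the fit of all 21 libraries 1 and neighbours 5. The 50000 strongest gave Axin1 and Apc higher and Sfrp1 lower, and regions gave Frzb and Fzd10 higher and 0 lower, none of which are the 2 calls. In tumor against hyperplasia 0 were called by limma, and 12 had an unadjusted p below 0.05, against 2366 of all 14112 genes. There the 50000 strongest summits, gene bodies alone and no filter gave 2 each. Whole lists, 500-bp regions, pseudocount 0.5 and neighbours gave 1 each. In tumor against GNP (4) all 21 libraries gave 1. In untreated VDR cells against tumor (16) the 50000 strongest gave 7 and whole lists 25. With siNC against tumor (8), whole lists gave 17, regions 4, all 21 libraries 14, neighbours 3, and tumor with siNC alone, chosen after seeing the data, 13. With siNfib against siNC (2), the 50000 strongest, whole lists, gene bodies and regions gave 0 each and neighbours 1. Leaving out a library gave 0 to 2, 0 to 1, 1 to 2, 13 to 17, 3 to 7, 0 to 0 and 0 to 1 members in hyperplasia against GNP, tumor against hyperplasia, tumor against GNP, VDR and siNC against tumor, and siNfia and siNfib against siNC. In the same order it gave 139 to 362, 5 to 37, 220 to 373, 5220 to 6927, 2109 to 2584, 0 to 0 and 3 to 107 of all genes.

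Regions gained or lost were 13, 13, 20, 64, 64, 2 and 14 in that order. Gene bodies alone gave 7 in hyperplasia against GNP, 10 in tumor against GNP and 5 with siNfib. Whole lists gave 135 for VDR and 7 for siNfia, and the 50000 strongest 32 for VDR, 42 for siNC and 5 for siNfia. Leaving out a library, added after seeing the data, gave 16 to 24, 15 to 27, 23 to 30, 73 to 102, 69 to 77, 3 to 11 and 18 to 24.

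Signs turned for Lgr5 in hyperplasia against GNP (50000 strongest, -0.033), Tcf7l2 there (whole lists -0.043, gene bodies -0.049), Axin1 (50000 strongest, 0.32), Rspo1 (whole lists, -0.47) and Wnt7b (50000 strongest -0.064, whole lists -0.23) in tumor against GNP, Tcf7 (whole lists, -0.13) and Tcf7l1 (50000 strongest -0.080, neighbours -0.15) in VDR cells, Tcf7l2 (whole lists, -0.27) and Fzd7 (neighbours, -0.14) with siNC, and Wnt7b with siNfib (0.13 and 0.13). The cause was not tested. The share of called genes that were higher was 41.8% in VDR cells (28.6% on whole lists, 55.1% on the 50000 strongest, 63.7% with regions), 60.7% in tumor against hyperplasia (8.48% on whole lists, 41.4% on the 50000 strongest, 42.8% with regions, 49.7% with neighbours), 46.4% in tumor against GNP (27.4% on whole lists, 57.8% with neighbours) and 37.8% with siNfib (94.4% on whole lists, 24.6% on the 50000 strongest, 50.4% with neighbours). Read depth is unknown, so no counting interval could be given.

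Once the group mean of each gene was subtracted, what remained in libraries with the same replicate number correlated at -0.038 to 0.066. This gives no sign that the numbers pair libraries, and with 3 libraries per group it cannot exclude pairing. A replicate block gave 1 member in hyperplasia against GNP and 1 with siNfib.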
